A study of Caenorhabditis elegans with 12 samples.

Results

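The genes described here encode the respiratory chain of Caenorhabditis elegans and are split between the mitochondrial and the nuclear genome. They were chosen by rule. The mitochondrial members were all messenger genes of the mitochondrial genome in the count tables, with its ribosomal RNAs left out. The nuclear members were the genes whose symbols in the authors' deposited table mark subunits of complexes I to V, cytochrome c or cytochrome c oxidase assembly factors. The rule gave 44 of 44968 gene entries, 12 in the mitochondrial genome and 32 in the nucleus. Of these, 40 passed the filter on low counts, 8 mitochondrial and 32 nuclear.

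Polyadenylated RNA was sequenced from arrested first-stage larvae, which hatch without food and stop developing. All animals carried hrde-1(tm1200), an allele of the gene for a nuclear Argonaute protein that acts in inherited silencing in the germline. Their parents had fed for 72 h on HT115 bacteria holding an empty vector, or on bacteria expressing double-stranded RNA against daf-2, the gene of the insulin/IGF receptor, or against pitr-1. Larvae were collected about 24 h after embryos had been freed by bleach, and each of the 3 groups had 4 libraries, numbered 1 to 4 as biological replicates. The labels do not say whether equal numbers share a day, a culture or a library preparation, and p-values measure the spread between these libraries. The RNAi was given to the parents, and no unexposed wild-type group was analysed here.

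The respiratory chain passes electrons from complexes I and II through complex III and cytochrome c to complex IV, and complex V makes ATP from the proton gradient that this builds. Complex II and cytochrome c are built from nuclear genes alone, while complexes I, III, IV and V combine subunits from both genomes. Mitochondrial messengers are cut from long transcripts made by a dedicated polymerase.

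Libraries held 5907286 to 11490429 gene counts. Nuclear ribosomal RNA took 15.97% to 46.9% of them, so shares below are of the gene counts without it. Unaligned reads made up 39.8% of the reads in pitr-1 RNAi replicate 1, 28.0% in empty vector replicate 1 and 16.3% to 20.5% in the other libraries. Summed levels of 10 body wall muscle markers were 4621 to 8597 CPM (counts per 1000000 of the normalized library size) per library, those of 9 intestinal markers 2447 to 4893 CPM, and those of 4 yolk protein genes of adults 2.02 to 14.1 CPM. In the larvae, daf-2 itself was at 65.3 ± 16.0 CPM after empty vector and 47.5 ± 19.3 CPM after daf-2 RNAi. After pitr-1 RNAi, daf-2 was similarly at 49.5 ± 14.4 CPM. pitr-1 was at 217 ± 28.6 CPM after empty vector and 212 ± 73.5 CPM after pitr-1 RNAi (SD, n = 4). Neither targeted gene was called (edgeR log2 fold change -0.46 ± 0.31 and -0.04 ± 0.24, SE, adjusted p = 0.99995 and 0.99997).

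Messengers of the mitochondrial genome were many times lower in the libraries numbered 2 and 4 than in 1 and 3, in every RNAi group. The nuclear members chosen by the rule together took a nearly constant share of the gene counts without nuclear ribosomal RNA. The mitochondrial share in replicate 1 was 5.28% after empty vector, 6.48% after daf-2 RNAi and 6.25% after pitr-1 RNAi. In replicate 3 it was 5.16%, 3.89% and 4.65% in the same order. In replicate 2 it was 0.83%, 1.12% and 0.816%, and in replicate 4 it was 0.681%, 0.642% and 0.584%. The ranges of the 4 numbers did not overlap, and the mean was 5.29% ± 0.974 over replicates 1 and 3 against 0.779% ± 0.194 over replicates 2 and 4 (SD, n = 6 each).

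The 32 nuclear members together took 1.03% to 1.22% of the counts in every library. Their mean share was 1.08% ± 0.0409 in replicates 1 and 3 and 1.16% ± 0.0505 in replicates 2 and 4. By summed CPM the 32 were at 8262 ± 1125 in replicates 1 and 3 and 7612 ± 468 in replicates 2 and 4, the opposite direction. Another 39 tested nuclear respiratory chain genes outside the rule summed to 9643 ± 1825 and 6834 ± 455 CPM (SD, n = 6 each). The count of mitochondrial messengers divided by that of the nuclear members was 3.54 to 5.68 in replicates 1 and 3 and 0.506 to 0.924 in replicates 2 and 4. That is, the 8 counted mitochondrial messengers outnumbered the 32 nuclear members in each library of the first 6. They were outnumbered in each of the other 6. The ratio leaves out the 4 empty or nearly empty mitochondrial entries and the 39 other nuclear genes. Its side of 1 therefore depends on the genes counted. These are whole larvae, and the labels do not say whether library preparation went with the replicate number. Fewer mitochondria or cells, less RNA in each of them and a difference in library preparation therefore cannot be told apart.

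**Figure D1:**
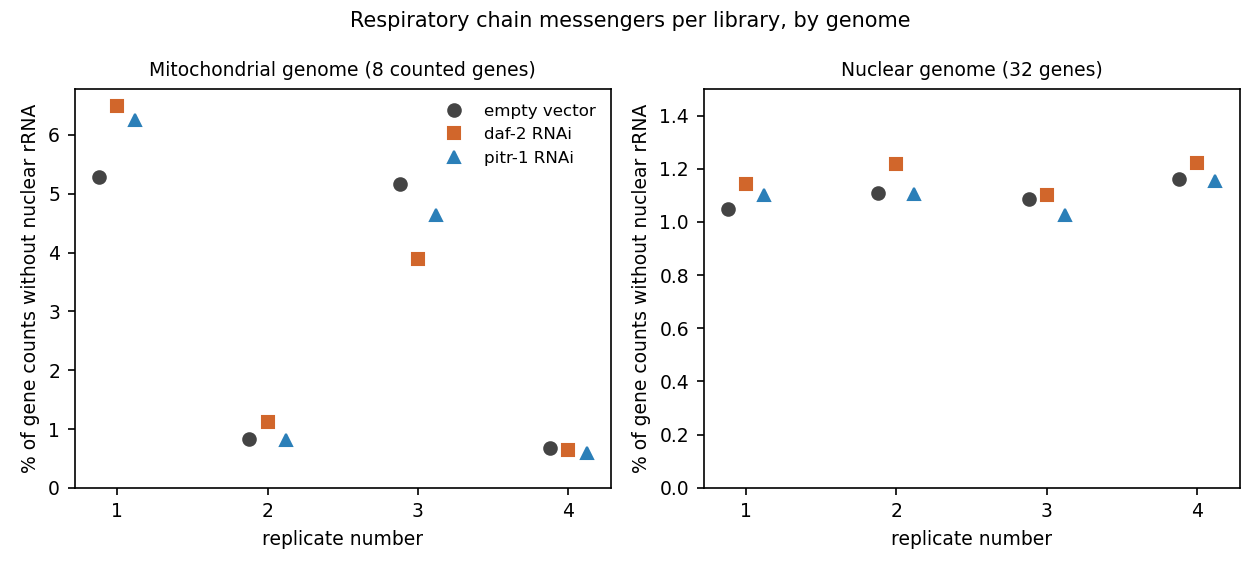
Share of gene counts without nuclear ribosomal RNA (%, y axis) taken by the 8 counted mitochondrial messengers (left) and the 32 nuclear members (right), by replicate number (x axis); each point is 1 library, coloured by the RNAi of the parents. The left values sit at 3.89% to 6.48% for replicates 1 and 3 and at 0.584% to 1.12% for replicates 2 and 4, while the right values stay within 1.03% to 1.22%.

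The difference between replicate numbers was tested with edgeR's quasi-likelihood F test of the replicate number (3 degrees of freedom), with the RNAi group in the model and Benjamini-Hochberg adjustment over 14664 genes. It called 27 of the 40 members at an adjusted p under 0.05, against 26.6% of all genes tested. All 8 mitochondrial members were called, and 19 of the 32 nuclear members, or 59.4%. Without the 3 libraries of replicate 2, the 8 mitochondrial and 7 nuclear members were called, beside 12.7% of all genes tested. Without those of replicate 4 it was the 8 and 11, beside 13.6%. Leaving out replicate 1 of the daf-2 RNAi group gave the 8 and 12 nuclear members, and so did leaving out replicate 4 of that group, beside 19.4% and 17.3% of all genes tested. The grouping of numbers 2 and 4 against 1 and 3 was read from these data, so folds between these pairs of numbers are descriptions and have no test of their own. The F test has no direction, and a member is described as called lower or higher by the sign of that difference. In 26 of the 27 called members, the means of replicates 2 and 4 both lay on the same side of the means of replicates 1 and 3; ucr-2.3 was the exception. Beside them, several library measures separated the same numbers. Reads in no annotated feature were 3.21% to 4.60% in replicates 2 and 4 and 1.71% to 2.67% in replicates 1 and 3. Ambiguous reads were 4.59% to 6.05% and 6.63% to 8.45%. Summed pharyngeal markers were 2149 to 2895 CPM and 876 to 1310 CPM, with 5 of 7 called, and summed body wall muscle markers were 7149 to 8597 CPM and 4621 to 5465 CPM, with 8 of 10 called. The part of these measures in the difference was not tested.

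Complex I takes 5 of the counted mitochondrial messengers, nduo-1, nduo-2, nduo-3, nduo-4 and nduo-6, which encode membrane subunits of NADH dehydrogenase. nduo-1 was at 5673, 7455 and 8209 CPM in replicate 1 (empty vector, daf-2 RNAi and pitr-1 RNAi in turn), at 5908, 4252 and 4274 CPM in replicate 3, at 712, 1031 and 694 CPM in replicate 2 and at 637, 588 and 513 CPM in replicate 4. Its lowest value in replicates 1 and 3 was thus above its highest in replicates 2 and 4, with a mean log2 CPM difference of -3.09 and an adjusted p of 5.62e-07 in edgeR's replicate number test. nduo-2 had the most negative difference of all 14664 genes, -3.51, which is 11.4-fold. It was at 780, 777 and 1030 CPM in replicate 1, at 1063, 502 and 813 CPM in replicate 3, at 55.8, 72.8 and 52.6 CPM in replicate 2 and at 90.4, 79.9 and 78.3 CPM in replicate 4 (adjusted p = 5.62e-07). For nduo-2, replicate 4 lay above replicate 2 in each RNAi group, the opposite of nduo-1. nduo-4, nduo-3 and nduo-6 were 8.01-fold, 11.1-fold and 10.1-fold lower in replicates 2 and 4, with adjusted p of 5.62e-07, 4.75e-05 and 0.000247.

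ctb-1, the cytochrome b of complex III, was at 9683, 13018 and 13806 CPM in replicate 1, at 10565, 7141 and 7658 CPM in replicate 3, at 1572, 2224 and 1550 CPM in replicate 2 and at 1439, 1330 and 1126 CPM in replicate 4. Among the 8, its difference was the smallest at -2.73, or 6.64-fold (adjusted p = 3.09e-06). Within the mitochondrial messenger counts, ctb-1 made up 24.4% to 26.7% in replicates 1 and 3 and 29.2% to 30.97% in replicates 2 and 4. These ranges did not overlap, so the messengers were not lower by an equal factor.

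ctc-2 and ctc-3 encode catalytic core subunits of complex IV, cytochrome c oxidase. ctc-3 was at 13958, 16347 and 18509 CPM in replicate 1, at 12452, 7580 and 9451 CPM in replicate 3, at 1696, 2107 and 1604 CPM in replicate 2 and at 1400, 1255 and 1133 CPM in replicate 4. It differed by -3.06 and ctc-2 by -3.07, each with an adjusted p of 5.62e-07. Together, the 8 mitochondrial messengers held the 8 most negative differences among the 14664 genes, with a median of -3.08 against 0.08 over all genes. None of the 8 overlapped between the 6 and 6 libraries, where 7.84% of all genes were lower in replicates 2 and 4 without overlap and 8.1% were higher. The small ribosomal RNA of the mitochondrion, which is not a member, differed by less, -1.16 (adjusted p = 0.000768).

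The other 4 mitochondrial members could not be compared. The entries for ND5, ND4L and ATP6 were at 0 counts in all 12 libraries, and the entry for COX1 held 0 to 11 counts per library. The entry for the large mitochondrial ribosomal RNA held 0 to 3 counts, while that for the small held 8683 to 25244. A count of 0 allows up to 3 counts, or 0.261 to 0.508 CPM of all gene counts in these libraries. Since cytochrome c oxidase subunits ctc-2 and ctc-3 were among the abundant messengers, the zeros are given only as counts and not as absence of the transcripts. Why these entries were nearly empty was not tested.

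**Figure D2:**
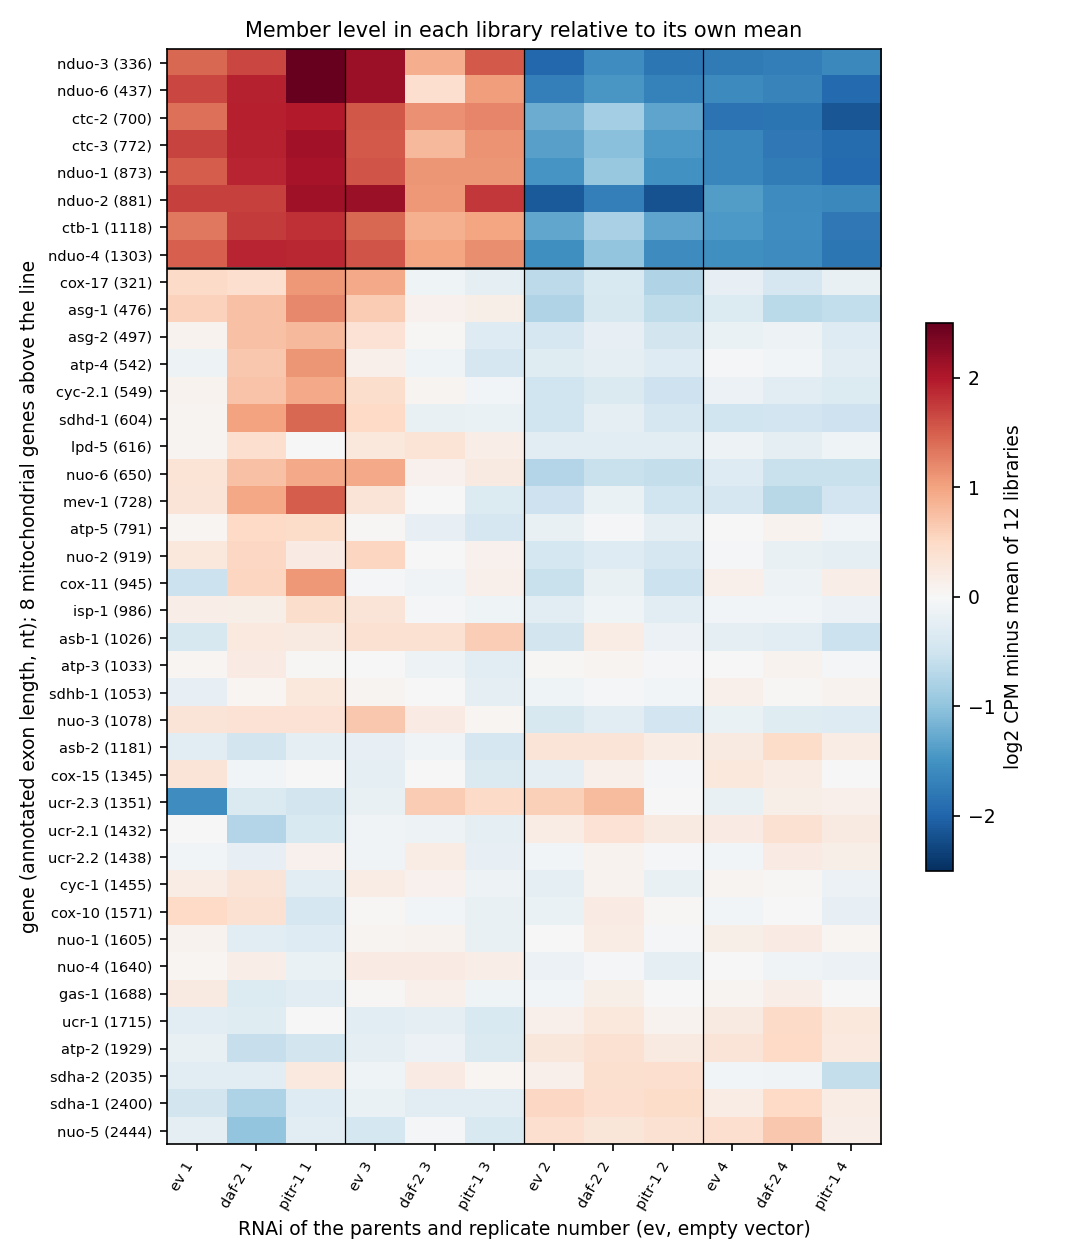
Each member's log2 CPM in each of the 12 libraries (columns, ordered by replicate number and then RNAi group) minus its mean over the 12 libraries; red is higher and blue lower, with colours saturating at 2.5. The 8 mitochondrial genes above the black line are red in replicates 1 and 3 and blue in replicates 2 and 4; the 32 nuclear genes below it, ordered by annotated exon length (nt, in parentheses), are paler, with short genes tending to the same direction and long genes to the opposite.

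The 19 nuclear members called for the replicate number were spread over all complexes and both directions, with 12 lower and 7 higher in replicates 2 and 4. The differences ran from -1.14 to 0.79, with a median of -0.14, and so none reached the smallest mitochondrial difference. Of the 32, 7 were lower and 6 higher in replicates 2 and 4 without overlap, beside 7.84% and 8.1% of all genes tested.

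In complex I, 4 of 8 nuclear members were called lower (nuo-6, nuo-3, nuo-2 and lpd-5) and nuo-5 was called higher. nuo-6, an accessory subunit, was at 185, 243 and 282 CPM in replicate 1, at 279, 158 and 169 CPM in replicate 3, at 87.4, 99.2 and 96.7 CPM in replicate 2 and at 117, 98.4 and 98.7 CPM in replicate 4. Its difference was -1.10 (adjusted p = 0.0011), with no overlap. nuo-5, an iron-sulfur core subunit, was at 40.9 to 79.2 CPM in replicates 1 and 3 and at 91.9 to 130 CPM in replicates 2 and 4, a difference of 0.79 (adjusted p = 0.00822). The core subunits gas-1 and nuo-1, which bind the quinone and NADH ends of the path, had differences of 0.11 and 0.18 and overlapping libraries (adjusted p = 0.748 and 0.414).

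In complex II, succinate dehydrogenase, the membrane anchors and the flavoprotein moved apart. mev-1, a cytochrome b anchor, was at 137, 213 and 314 CPM in replicate 1, at 136, 109 and 85.6 CPM in replicate 3, at 75.8, 97.7 and 77.2 CPM in replicate 2 and at 82.2, 67.8 and 77.9 CPM in replicate 4. Its difference was -0.92 with overlapping libraries (adjusted p = 0.00215), and that of the other anchor, sdhd-1, was -0.89 (adjusted p = 0.00478). sdha-1, the flavoprotein, was at 33.4, 27.2 and 37.2 CPM in replicate 1, at 41.0, 38.1 and 38.6 CPM in replicate 3, at 66.1, 62.1 and 63.5 CPM in replicate 2 and at 52.8, 65.2 and 52.8 CPM in replicate 4. It was higher in replicates 2 and 4 by 0.75 without overlap (adjusted p = 0.00208). sdhb-1, the iron-sulfur subunit, was at 87.2 to 123 CPM in replicates 1 and 3 and at 95.7 to 113 CPM in replicates 2 and 4, with an adjusted p of 0.807.

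In complex III, no nuclear member was called lower, and the core protein genes ucr-1 and ucr-2.1 were called higher. Another core protein gene, ucr-2.3, was called with means of 5.04, 11.7, 10.5 and 8.48 CPM in replicates 1 to 4. Its replicate 1 was the lowest, and its libraries overlapped between the pairs of numbers. ucr-2.1 was at 169 to 280 CPM in replicates 1 and 3 and at 321 to 366 CPM in replicates 2 and 4, a difference of 0.53 (adjusted p = 0.0247). The catalytic subunits isp-1, the Rieske iron-sulfur protein, and cyc-1, cytochrome c1, had differences of -0.30 and -0.13 that did not pass (adjusted p = 0.135 and 0.713). cyc-2.1, cytochrome c, was at 1253, 1923 and 2265 CPM in replicate 1, at 1591, 1229 and 1128 CPM in replicate 3, at 830, 912 and 826 CPM in replicate 2 and at 1065, 962 and 927 CPM in replicate 4. Its difference was -0.72, with no overlap (adjusted p = 0.00611).

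The nuclear members of complex IV were the assembly factors cox-10, cox-11, cox-15 and cox-17, which supply heme A and copper. Only cox-17 was called among them, at 9.03 to 22.8 CPM in replicates 1 and 3 and 6.35 to 9.36 CPM in replicates 2 and 4 (difference -0.85, adjusted p = 0.0256).

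In complex V, the ATP synthase, 4 of 8 members were called lower (asg-1, asg-2, atp-4 and asb-1) and 2 higher (atp-2 and asb-2). asg-1, a subunit g, was at 104, 115.4 and 159 CPM in replicate 1, at 107, 74.0 and 76.7 CPM in replicate 3, at 41.0, 52.3 and 44.5 CPM in replicate 2 and at 54.2, 43.0 and 45.2 CPM in replicate 4. Its difference of -1.14 was the most negative of the nuclear members (adjusted p = 0.000619). atp-2, the catalytic beta subunit, was at 1031, 785 and 855 CPM in replicate 1, at 1006, 1061 and 910 CPM in replicate 3, at 1440, 1525 and 1381 CPM in replicate 2 and at 1472, 1668 and 1388 CPM in replicate 4. It was higher by 0.66 in replicates 2 and 4 without overlap (adjusted p = 0.00378). Of the paired genes for subunit b, asb-2 was called higher by 0.56 (adjusted p = 0.00731) and asb-1 lower, with a difference of -0.48 (adjusted p = 0.0455).

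The direction of the nuclear members went with the length of their annotated exons. The 12 called lower in replicates 2 and 4 were 321 to 1078 nt long with a median of 610 nt, and the 7 called higher were 1181 to 2444 nt long with a median of 1715 nt. The 13 that were not called had a median of 1438 nt. Spearman's rho between length and difference was 0.835 over the 32 nuclear members, which share the same 12 libraries. It was 0.542 over 14466 genes with a length, so the trend was not confined to the respiratory chain. Over all genes, the median difference rose from -0.81 at lengths up to 500 nt to 0.58 above 3000 nt. The mitochondrial messengers, 336 to 1303 nt long, lay far below genes of their own length at each length.

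A fit with an offset for this trend in each library, added after the data were seen, called 17 members, the 8 mitochondrial and 9 nuclear, against 16.4% of all genes. The mitochondrial differences were then -3.27 to -2.58 and again the 8 most negative of all genes. The nuclear members called in it were asb-2, mev-1, nuo-6, nuo-3, asg-1, atp-2, sdhd-1, atp-5 and ucr-2.1. Their differences in that fit ran from -0.64 for nuo-6 to 0.62 for asb-2.

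**Figure D3:**
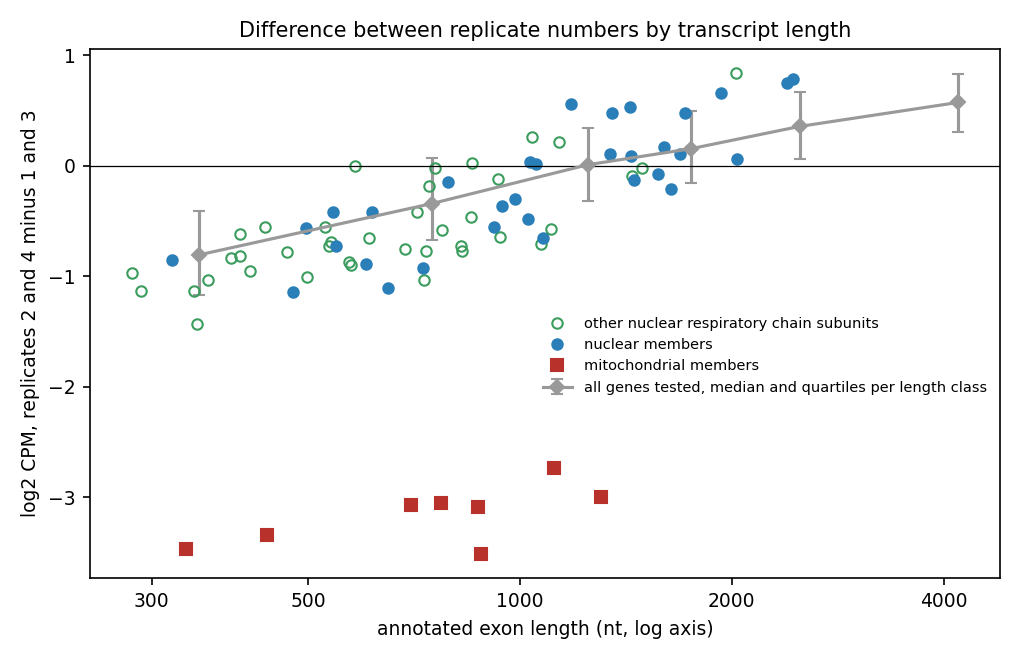
Mean log2 CPM in replicates 2 and 4 minus that in replicates 1 and 3 (y axis) against annotated exon length in nt (x axis, log scale), with 1 point per gene; grey diamonds are medians and bars quartiles of all genes tested in 6 length classes. Nuclear members and other nuclear respiratory chain genes (labelled subunits in the key) follow the grey line from about -1 to about 0.8. The 8 mitochondrial members sit at -3.51 to -2.73.

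Another 40 nuclear respiratory chain genes stand outside the rule because the authors' table names them otherwise, and 39 were tested. Beside subunits they include the complex IV assembly factors cox-14, cox-18 and cox-19, and also mai-1 and mai-2. Of the 39, 28 were called for the replicate number, 27 lower and 1 higher in replicates 2 and 4, beside 26.6% of all genes. The 39 had a median difference of -0.69 and a median length of 686 nt. Without overlap, 23 were lower and 1 higher, beside 7.84% and 8.1% of all genes. With the length offset, 11 were called, beside 16.4% of all genes, and the median was -0.15. The gene called higher was atp-1, the alpha subunit of ATP synthase, which was at 323 to 452 CPM in replicates 1 and 3 and at 629 to 847 CPM in replicates 2 and 4 (difference 0.84, adjusted p = 0.00104). Of 7 structural subunits of complex IV among them, 5 were called lower (cox-5B, cox-6A, cox-6B, cox-6C and cox-7C), with differences of -0.87 to -0.73, and 2 with the length offset (cox-5B and cox-6B). cox-4 and cox-5A differed by 0.03 and -0.18 (adjusted p = 0.484 and 0.469).

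The RNAi of the parents left the libraries of the 3 groups overlapping in both genomes' shares, which were not tested. The mitochondrial share was 2.99% ± 2.58 after empty vector, 3.04% ± 2.71 after daf-2 RNAi and 3.07% ± 2.82 after pitr-1 RNAi (SD, n = 4). The nuclear share was 1.10% ± 0.0477, 1.17% ± 0.0598 and 1.10% ± 0.0523. The ratio of the 2 genomes' counts had group means of 2.78, 2.67 and 2.86. Between same-numbered libraries, daf-2 RNAi minus empty vector was 0.30, 0.44, -0.41 and -0.08 on the log2 scale for the mitochondrial share in replicates 1 to 4, with no common direction. For the nuclear share it was 0.12, 0.13, 0.02 and 0.07, higher in 4 of 4 pairs, with a mean of 0.09. By summed CPM, which uses the TMM library sizes, the nuclear members were higher in 3 of 4 pairs, and in replicate 3 they were lower. In the same comparison, 13 of 13 germline markers had log2 fold changes above 0 (median 1.51). Their summed level was 48.9, 231, 208 and 39.8 CPM in replicates 1 to 4 after daf-2 RNAi. After empty vector it was 45.1, 66.0, 34.3 and 30.6 CPM. Of the intestinal markers, 9 of 9 were below 0 (median -0.15). Their sum was 2447, 3703, 3746 and 4893 CPM after daf-2 RNAi and 3952, 3867, 4045 and 4372 CPM after empty vector. In replicate 4 that sum was thus higher after daf-2 RNAi. No marker of either list was called by edgeR, and 5 and 2 had an unadjusted p under 0.05, beside 527 of 14664 genes. With the replicate number as a block, edgeR called 1 intestinal marker lower (adjusted p = 0.0394) and no germline marker. For pitr-1 RNAi versus empty vector, 13 of 13 germline markers were above 0 (median 1.12) and 8 of 9 intestinal markers below 0 (median -0.17). The germline markers summed to 36.9, 93.8, 270 and 42.3 CPM in replicates 1 to 4 after pitr-1 RNAi. In that comparison edgeR called no marker of either list with or without the block. Without it 3 and 0 had an unadjusted p under 0.05, beside 253 genes. Their part in the shares was not tested. The log2 difference in nuclear share for pitr-1 RNAi minus empty vector was 0.07, -0.00, -0.08 and -0.01. The comparisons with empty vector share those 4 libraries.

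No member was called in the 3 comparisons between RNAi groups by edgeR, at an adjusted p under 0.05 over all genes. The calls over all genes were 0.0341% for daf-2 RNAi versus empty vector, 0.00682% for pitr-1 RNAi versus empty vector and 0.0136% for daf-2 versus pitr-1 RNAi. None of the 40 had an unadjusted p under 0.05 in any of the 3, beside 527, 253 and 327 of 14664 genes in turn. DESeq2 called 0 members as well. With the replicate number as a block, 0 members were called, against 0.314%, 0.00682% and 0.15% of all genes. In that fit, 1 member had an unadjusted p under 0.05 for daf-2 RNAi versus empty vector, beside 1207 of 14664 genes. It was 0 members and 535 genes for pitr-1 RNAi versus empty vector, and 1 member and 693 genes for daf-2 versus pitr-1 RNAi.

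For the mitochondrial messengers these comparisons were imprecise without the block. The SE of their log2 fold changes was 0.88 to 1.10, and their median fold changes were -0.05, 0.07 and -0.10. With the block the SE of the first comparison fell to 0.18 to 0.33, and its fold changes ran from -0.37 to 0.13. The 32 nuclear members had median log2 fold changes of 0.04 (22 above and 10 below 0), -0.05 (13 and 19) and 0.09 (22 and 10), beside 0.00, 0.02 and -0.02 over all genes.

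The smallest p for daf-2 RNAi versus empty vector was that of ucr-2.3, a core protein of complex III. It was at 2.74, 12.5, 7.28 and 7.29 CPM in replicates 1 to 4 after empty vector and at 6.37, 14.4, 12.8 and 9.10 CPM after daf-2 RNAi. It was higher in 4 of 4 pairs while the groups overlapped, with an edgeR log2 fold change of 0.50 ± 0.39 (SE, adjusted p = 0.99995), and with the block of 0.56 ± 0.26 (adjusted p = 0.598). In the authors' deposited table, ucr-2.3 had a log2 fold change of 0.59 and a false discovery rate of 0.634, the lowest among the 40 members listed there. Next by p were asb-1 with 0.29 ± 0.27, ucr-2.2 with 0.15 ± 0.16 and cox-11 with 0.28 ± 0.33.

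For pitr-1 RNAi versus empty vector, the smallest p values belonged to cox-11 at 0.53 ± 0.33, cyc-1 at -0.25 ± 0.16, cox-10 at -0.28 ± 0.20 and nuo-1 at -0.19 ± 0.17. In replicates 1 to 4, cox-11 was at 22.2, 7.14, 11.4 and 11.7 CPM after pitr-1 RNAi. After empty vector it was at 7.12, 7.06, 10.2 and 11.3 CPM, so the groups differed mainly in replicate 1. cyc-1, cytochrome c1, was at 289, 218, 289 and 265 CPM in replicates 1 to 4 after empty vector, at 316, 269, 272 and 259 CPM after daf-2 RNAi and at 207, 222, 233 and 229 CPM after pitr-1 RNAi. Its daf-2 and pitr-1 RNAi libraries did not overlap, the only member of which this held in the 3 comparisons; 2.05% of all genes had no overlap in that comparison, 2.62% in daf-2 RNAi versus empty vector and 1.35% in pitr-1 RNAi versus empty vector. The edgeR log2 fold change of cyc-1 between daf-2 and pitr-1 RNAi was 0.32 ± 0.16 (adjusted p = 0.9999), and with the block 0.32 ± 0.13 (adjusted p = 0.853). cox-10, nuo-1 and nuo-4 followed in that comparison, with 0.32 ± 0.20, 0.19 ± 0.17 and 0.15 ± 0.16.

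**Figure D4:**
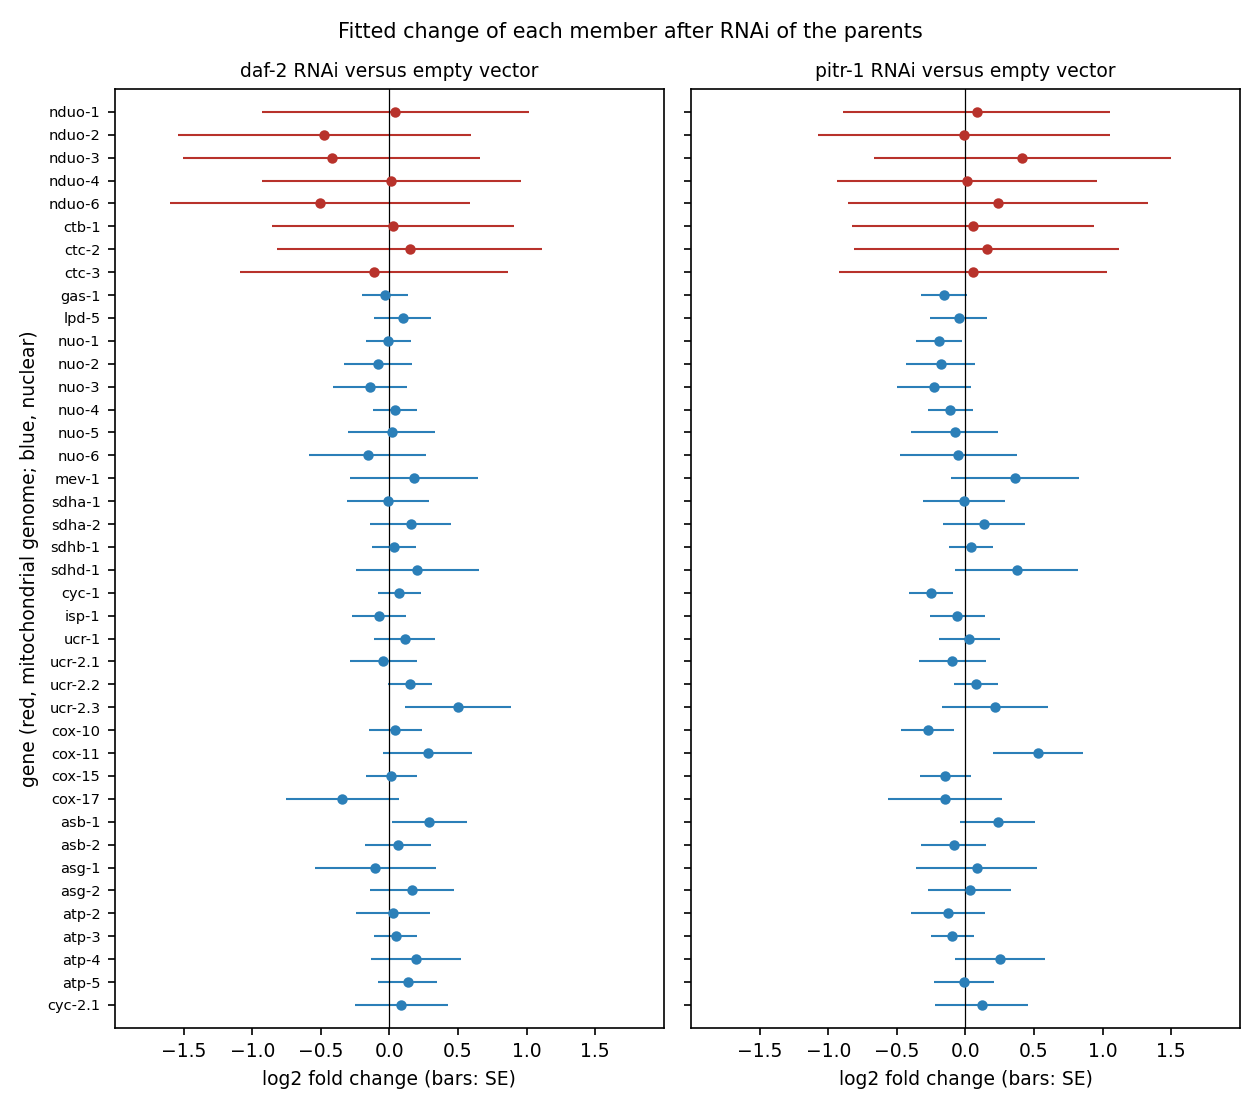
edgeR log2 fold change (x axis; bars, SE from the fit without a replicate block) of each of the 40 tested members (y axis) for daf-2 RNAi (left) and pitr-1 RNAi (right) versus empty vector. The 8 mitochondrial members (red) have SE of 0.88 to 1.10 and the 32 nuclear members (blue) lie between -0.34 and 0.53; no member was called in either comparison.

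Per length of annotated exons, mitochondrial messengers stood above most nuclear ones on the mean over 12 libraries. ctc-3 had 9444 CPM per kb, ctb-1 5300, ctc-2 4594, nduo-1 3813, nduo-4 1581, nduo-6 1004, nduo-3 641 and nduo-2 510 CPM per kb. Among the nuclear members, cyc-2.1 had 2263 CPM per kb, followed by atp-4 with 679, atp-5 with 654, atp-2 with 627, asg-2 with 574 and isp-1 with 550 CPM per kb. These mitochondrial means mix libraries that differ by 6.64-fold to 11.4-fold per gene, so the order between genomes differs between replicate numbers.

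Several subunits have a second gene, and in each case the same gene of the pair was the higher per length in all 12 libraries. asb-2 was 16.8 times asb-1 per kb, with ratios of 8.17 to 29.1 over the libraries. asb-1 is known as the form of the germline, whose 13 tested markers summed to 208 to 270 CPM in daf-2 RNAi replicates 2 and 3 and pitr-1 RNAi replicate 3 and to 30.6 to 93.8 CPM elsewhere. asb-1 itself was at 21.2, 24.3 and 28.7 CPM in those 3 libraries and at 12.8 to 24.1 CPM in the others, and the part of the germline in its level was not tested. sdha-1 was 8.22 times sdha-2, asg-2 was 3.58 times asg-1, and ucr-2.1 was 6.03 times ucr-2.2 and 30.4 times ucr-2.3. Reads that fit both copies of such a pair could have been split or dropped in the counting, so these ratios are uncertain.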

How the data were processed

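Each library came with a table of raw counts over gene entries, deposited by the authors; per the submitters' processing notes Bowtie 1.2.2, HTSeq and edgeR were used. For alignment options, build and annotation, nothing is given in the sources used here. The kit keeps no strand, per the labels, so reads of antisense partners cannot be told apart by strand. Reads classed as ambiguous are in no gene entry. The 5 summary entries per table stayed out of library sizes; of all reads 1.71% to 4.60% were in no feature, 4.59% to 8.45% ambiguous and 16.3% to 39.8% unaligned. The authors also deposited log2 fold changes, log2 CPM, F statistics, p-values and false discovery rates for 12395 genes, after a batch correction whose variable is not stated; a few are quoted and none was tested.

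Here edgeR 4.0.16 (R 4.3.3) fitted all 12 libraries together by robust quasi-likelihood after TMM and filterByExpr. Calls are two-sided at a Benjamini-Hochberg adjusted p under 0.05 over 14664 genes. CPM uses TMM library sizes, log2 CPM a prior count of 2. SE is the absolute log2 fold change over the square root of F. Lengths and the names of 4 mitochondrial genes came from Ensembl release 115 and RefSeq, whose build may differ from the authors'. The members and lists were chosen with earlier results of these data known. Genes were named when mitochondrial, textbook subunits, called (up to 12 per test), or among those of smallest or largest p. Same-numbered libraries deviated together from their group means (correlations 0.137 to 0.505, 0.104 to 0.508 and 0.434 to 0.610; up to 0.492, 0.381 and 0.490 between different numbers), so they were taken as pairs on the data, not the labels. Alternatives were DESeq2 1.42.0, other filters, scalings and omissions; the length offset and the omission of the 2 libraries with most unaligned reads were added after seeing the data. The fits were tested on simulated counts of smaller spread than these data, so that check does not show their power here.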

Additional observations from a re-analysis of the deposited data

Results flagged for a closer look

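Within groups of 4 libraries, 4 of 90 sets of values examined had a library far from the other 3, and chance alone gives such a gap in about 1 in 20. The 90 sets did not cover every member. All 4 were libraries numbered 1. In pitr-1 RNAi replicate 1, mev-1, an anchor of complex II, was at 314 CPM with the others at 77.2 to 85.6 CPM, and asg-2, a subunit of ATP synthase, was at 476 CPM with the others at 199 to 219 CPM. In that library atp-4, outside the 90 sets, was at 750 CPM with the others at 262 to 286 CPM. There sdhd-1, also outside them, was at 238 CPM with the others at 61.3 to 78.6 CPM. That library also had 39.8% unaligned reads, the highest share of the 12, and its part in these values was not tested. In daf-2 RNAi replicate 1, cox-11, a copper factor for cytochrome c oxidase, was at 15.03 CPM with the others at 9.16 to 9.78 CPM. In the same library gas-1, a core subunit of complex I, was at 134 CPM with the others at 187 to 191 CPM.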

How the results depend on the processing

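The 27 members called for the replicate number became 17 with the exon length offset. Leaving out each library or each replicate number in turn gave 15 to 29, with 15 when the 3 libraries of replicate 2 were left out. Over all genes, 3901 calls became 2406 with the length offset, 1846 without replicate 2 and 1961 without replicate 4; the cause was not tested. No member was called between RNAi groups under any alternative run, and the replicate block, taken from pairs seen in the data, changed no call of a member. The count over all genes for daf-2 RNAi versus empty vector was 5, with 46 under the replicate block, 100 with block and length offset, 50 with DESeq2, 13 without a filter, 0 in replicates 1 and 3 alone and 15 in replicates 2 and 4 alone. For daf-2 versus pitr-1 RNAi it was 2, with 22, 44, 22, 6, 0 and 25 in that order. For pitr-1 RNAi versus empty vector it was 1, with 3 under block and length offset, 4 in replicates 2 and 4 alone and 0 in replicates 1 and 3 alone. For daf-2 RNAi versus empty vector, the log2 difference in mitochondrial share was 0.06 without ribosomal RNA; as a share of all gene counts it was 0.29 and ran from -0.30 to 0.81 when 1 library was left out. The nuclear members of lowest level were sdha-2 at 4.97 CPM and ucr-2.3 at 8.94 CPM, and whether depth limited their comparisons was not tested.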

Other observations

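Other mitochondrial gene groups were read in the same replicate number test, in which 26.6% of all genes were called. Of 68 proteins of the mitochondrial ribosome, 24 were called, 22 lower and 2 higher in replicates 2 and 4. The median log2 difference of the 68 was -0.23, and with the length offset 8 were called, beside 16.4% of all genes. Of 15 citric acid cycle genes, 4 were called, all higher, with a median of 0.25. None of 8 coenzyme Q synthesis genes was called by edgeR, and 1 of 5 genes for maintenance and transcription of mitochondrial DNA was called, higher in replicates 2 and 4. Their median differences were -0.27 and 0.09.

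Among the cell type lists, 4 of 10 neuronal markers, 1 of 9 intestinal markers, 5 of 13 germline markers and 0 of 4 yolk protein genes were called in that test.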
